A study of Mus musculus with 4 samples.

Results

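The genes of the DEAD and DEAH box helicases were followed through H3K36me3 ChIP-seq of primary renal tubular epithelial cells (PTECs). They were taken as the protein-coding genes of chromosomes 1 to 19 whose symbols begin with Ddx or Dhx and a number, in GENCODE M21 on GRCm38. This gave 51 genes, 35 Ddx and 16 Dhx, of 20780 protein-coding genes. The knockout cells came from SETD2fl/fl KspCre/+ mice (Setd2-KO), and the control cells, titled WT, came from SETD2fl/fl mice without Cre. Both genotypes thus carried the floxed Setd2 alleles on the C57BL/6 background, and Cre was driven by the Ksp (Cdh16) promoter, which is active in kidney tubule epithelium. For each genotype 1 ChIP and 1 input library were made. There were no replicates, so the genotypes were set side by side without a test, and every interval covers counting error only.

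DEAD and DEAH box proteins are ATP-driven RNA helicases, named for a short acidic stretch in the part of the protein that binds and hydrolyses ATP. DEAD box proteins pry open short RNA duplexes and exchange the proteins bound to RNA, whereas DEAH box proteins move along the strand and pull complexes apart, and members of both families act at defined steps of pre-mRNA splicing, ribosome assembly, mRNA export, translation and RNA decay. SETD2 places the trimethyl group on lysine 36 of histone H3 in the wake of elongating RNA polymerase II, so H3K36me3 lies over the bodies of transcribed genes.

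The whole lists held 2732 Setd2-KO and 12242 control peaks, with a genome-wide background pileup of 6.54 fragments in the Setd2-KO and 6.58 in the control list. The median fold enrichment was 3.85 in the Setd2-KO and 3.83 in the control list. Fold enrichment is the height of a peak over its local background. Peaks lay in 3 of 10 proximal tubule marker genes in Setd2-KO PTECs, against 8 of 10 in control PTECs. Over all protein-coding genes the shares were 7.76% in Setd2-KO and 20.6% in control PTECs. Of 10 markers of the later tubule segments, from the loop of Henle to the collecting duct, 0 held a peak in either genotype. Immune and fibroblast markers held none either, and of 5 endothelial and 5 podocyte markers only Kdr and Podxl held a peak, each in control PTECs alone. A missing peak does not show that a gene was silent, and whether the PTECs of the 2 genotypes held the same cell mixture was not tested.

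The sequences at 4 control peaks shared with the Setd2-KO list are shown first, 2 from Ddx and 2 from Dhx genes of the splicing group. In each of these genes the control peak shown overlapped a Setd2-KO peak, and at all but Dhx38 the Setd2-KO peak reached into the window itself. Each line gives 241 bases centred on the summit of the control peak in GRCm38, 5' to 3' on the strand of the gene, with exonic bases in capitals. The windows are chr11:106787851-106788091 (minus strand) for Ddx5, chr11:106246752-106246992 (plus) for Ddx42, chr11:101764204-101764444 (plus) for Dhx8 and chr8:109556746-109556986 (minus) for Dhx38.
Ddx5: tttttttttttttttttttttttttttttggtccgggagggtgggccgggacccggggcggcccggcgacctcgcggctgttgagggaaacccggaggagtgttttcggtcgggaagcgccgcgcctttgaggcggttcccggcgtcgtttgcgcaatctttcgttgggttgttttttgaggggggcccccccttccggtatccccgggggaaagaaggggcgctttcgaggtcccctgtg
Ddx42: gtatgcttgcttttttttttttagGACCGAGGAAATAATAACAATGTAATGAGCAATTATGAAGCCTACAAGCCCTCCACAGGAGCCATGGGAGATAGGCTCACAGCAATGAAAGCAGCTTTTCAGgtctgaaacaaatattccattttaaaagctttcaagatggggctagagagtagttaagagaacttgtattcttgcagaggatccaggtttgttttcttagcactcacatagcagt
Dhx8: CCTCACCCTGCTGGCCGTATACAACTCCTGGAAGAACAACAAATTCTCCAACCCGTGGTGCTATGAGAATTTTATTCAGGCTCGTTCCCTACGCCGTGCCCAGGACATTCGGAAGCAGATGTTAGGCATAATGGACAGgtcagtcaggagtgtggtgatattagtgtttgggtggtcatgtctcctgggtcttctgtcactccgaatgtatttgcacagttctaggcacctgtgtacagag
Dhx38: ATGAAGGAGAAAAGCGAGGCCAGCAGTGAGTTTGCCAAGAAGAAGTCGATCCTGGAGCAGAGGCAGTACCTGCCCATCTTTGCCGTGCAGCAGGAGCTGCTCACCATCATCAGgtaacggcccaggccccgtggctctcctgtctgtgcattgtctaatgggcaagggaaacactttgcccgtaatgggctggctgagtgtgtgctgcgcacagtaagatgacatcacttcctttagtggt

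The Dhx8, Dhx38 and Ddx42 windows ran over exons 21, 12 and 17 of their genes, with 138, 113 and 102 exonic bases. The Ddx5 window was intronic throughout. Repeat-masked bases made up 14.9% of the Ddx5 window and 31.1% of the Ddx42 window, but 0% of the Dhx8 and Dhx38 windows. Other shared control peaks stood in more repeats. Windows made in the same way, not shown, were 64.7% masked in Ddx17, 74.3% in Dhx9, 84.6% in Ddx23 and 20.7% in Ddx6. Every stretch of 75 bases, the length of a read, occurred only once in the assembled chromosomes in all 4 windows shown. Over whole genes, 94.2% to 99.9% of such stretches occurred once in the members with a control peak (median 98.6%), and 90.3% to 100% in the members without (median 98.8%). Masked bases made up 21.3% of the Setd2-KO and 22.2% of the control peak bases in the members, beside 25.4% of the bodies of the same genes.

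The codons of the family's box itself were found in 44 of the 51 coding models, among them all 26 members with a control peak. They lay under a Setd2-KO peak in 1 gene, Ddx6, and under a control peak in 4 genes, Ddx5, Ddx24, Ddx47 and Dhx30. These 5 stretches of 90 coding bases (introns removed, strand of the gene) are shown because mark and family motif meet there, with the 12 bases of the box in capitals. The box bases lie at chr9:44626477-44627643 in Ddx6, divided between exons 7 and 8, with the Setd2-KO peak over the exon 8 part. They lie at chr11:106785193-106785204 in exon 7 of Ddx5, chr12:103417769-103417780 in exon 5 of Ddx24, chr6:135015899-135015910 in exon 5 of Ddx47 and chr9:110087673-110087684 in exon 8 of Dhx30.
Ddx6: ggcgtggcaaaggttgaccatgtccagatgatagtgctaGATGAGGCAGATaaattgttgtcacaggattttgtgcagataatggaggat
Ddx5: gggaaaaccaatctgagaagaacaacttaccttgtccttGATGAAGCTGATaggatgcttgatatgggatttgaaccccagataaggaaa
Ddx24: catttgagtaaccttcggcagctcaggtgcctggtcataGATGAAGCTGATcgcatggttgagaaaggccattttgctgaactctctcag
Ddx47: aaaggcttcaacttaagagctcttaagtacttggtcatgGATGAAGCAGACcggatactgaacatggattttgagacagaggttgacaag
Dhx30: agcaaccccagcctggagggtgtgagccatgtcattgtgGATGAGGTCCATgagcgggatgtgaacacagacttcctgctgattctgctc

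To learn how many helicase genes carried the mark, genes were counted as marked when a peak overlapped the gene body. H3K36me3 peaks lay in 13 of 51 members (25.5%, exact binomial 95% interval 14.3 to 39.6%) in Setd2-KO PTECs, beside 7.76% of all protein-coding genes. In control PTECs they lay in 26 of 51 members (51.0%, 36.6 to 65.2%), beside 20.6% of all genes. All 13 members marked in Setd2-KO PTECs were also marked in control PTECs. The other 13 control-marked members had no Setd2-KO peak, and 25 members had no peak in either list. Among all genes of the members' length range, 8.36% were marked in Setd2-KO and 22.2% in control PTECs. Thus the lower number in Setd2-KO PTECs was seen in the helicase genes and over the whole genome alike. The lists also differed in size. When the control list was reduced to its 2732 strongest peaks by fold enrichment, 13 members were marked in Setd2-KO PTECs, against 14 in control PTECs. Over all 20780 genes, 1613 were then marked in Setd2-KO and 1727 in control PTECs.

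The Ddx and Dhx genes were then compared. A Setd2-KO peak lay in 10 of 35 Ddx genes (28.6%, 14.6 to 46.3%) and in 3 of 16 Dhx genes (18.75%, 4.05 to 45.6%). The difference of Ddx minus Dhx was 9.82 percentage points (Newcombe 95% interval -17.4 to 30.3). A control peak lay in 17 of 35 Ddx genes (48.6%, 31.4 to 66.0%) and in 9 of 16 Dhx genes (56.25%, 29.9 to 80.2%), a difference of -7.68 points (-33.6 to 20.3). With these intervals neither order between the families can be told from counting error.

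**Figure D1:**
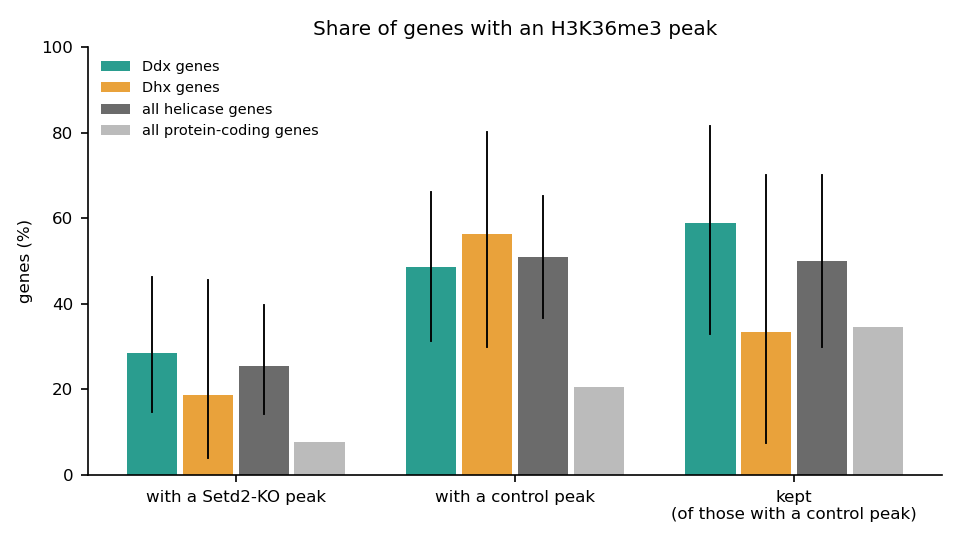
Percentage of genes (vertical axis) with a Setd2-KO peak, with a control peak, and kept, in Ddx genes, Dhx genes, all helicase genes and all protein-coding genes. Bars are shares and black lines exact binomial 95% intervals; the Ddx and Dhx intervals overlap in each of the 3 measures, for example 14.6 to 46.3% and 4.05 to 45.6% for Setd2-KO peaks.

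Genes with a control peak were called kept when the Setd2-KO list had a peak in them too. Of the control-marked members, 13 of 26 were kept (50%, 29.9 to 70.1%), beside 34.5% of all control-marked genes. Ddx genes were kept in 10 of 17 cases (58.8%, 32.9 to 81.6%) and Dhx genes in 3 of 9 (33.3%, 7.49 to 70.1%). The difference was 25.5 points with an interval of -13.2 to 54.4. Its sign turned with the rule. With peaks of at least 4-fold enrichment in both lists, 4 of 14 Ddx genes (28.6%) and 3 of 6 Dhx genes (50%) were kept. Over all genes the kept share was then 23.8%.

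The kept genes had more control coverage in the median than the others, though the ranges overlapped. They had a median of 3288 control bases (range 1127 to 5730), against 1368 (309 to 3177) in the members that were not kept. Over all genes the medians were 1785 bases in the kept and 667 bases in the others, so the same gradient ran through the genome. All 6 members with over 4000 control bases were kept, 4 Ddx and 2 Dhx genes, beside 84.7% of all such genes. Between 2000 and 4000 bases 3 of 6 members were kept, beside 64.1%, and between 1000 and 2000 bases 4 of 11, beside 40.8%. None of the 3 members with up to 500 bases was kept, beside 11.3%. These classes held few members, and no member had between 500 and 1000 bases.

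**Figure D2:**
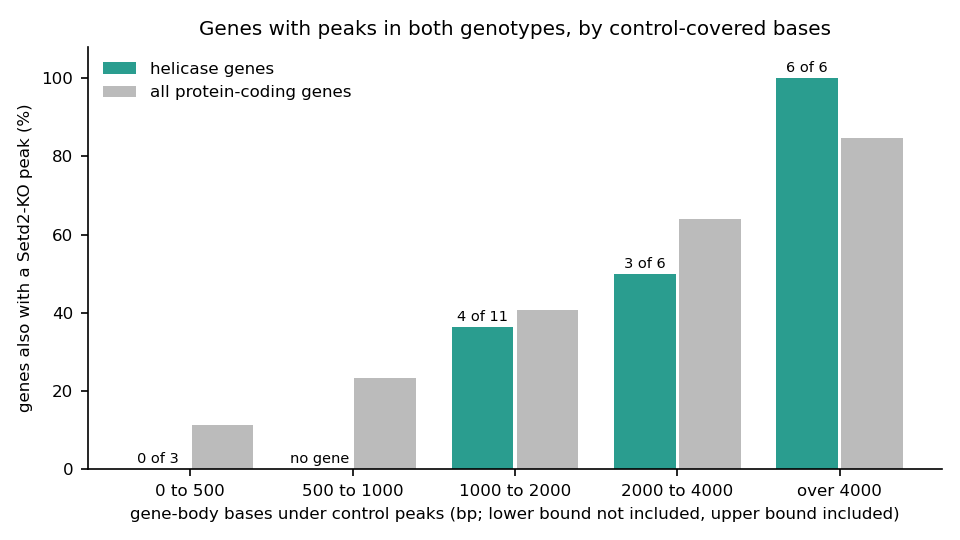
Percentage of genes with a control peak that also held a Setd2-KO peak (vertical axis), by gene-body bases under control peaks (horizontal axis, bp), for helicase genes with their counts above the bars and for all protein-coding genes. The share rises from left to right in both, to 6 of 6 helicase genes and 84.7% of all genes above 4000 bp.

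Kept genes were then divided by whether the peaks of both lists met at the same place. A Setd2-KO peak overlapped a control peak in 8 of the 26 control-marked members (30.8%, 14.3 to 51.8%), beside 23.4% of all such genes. This held for 5 of 17 Ddx genes (29.4%, 10.3 to 56.0%) and 3 of 9 Dhx genes (33.3%, 7.49 to 70.1%), a rule chosen after the values were seen. In Ddx18, Ddx21, Ddx24, Ddx50 and Ddx52 the peaks of the genotypes did not overlap. In Ddx21, Ddx24 and Ddx52 they still stood within 1 kb of each other, but not in Ddx18 and Ddx50. In all 3 kept Dhx genes they overlapped. Counted over peaks, 16 of 26 Setd2-KO peaks in members overlapped a control peak (61.5%, beside 60.7% over all genes), 10 of 20 in Ddx and 6 of 6 in Dhx genes. Of the control peaks, 14 of 113 overlapped a Setd2-KO peak (12.4%, 6.94 to 19.9%), beside 12.5%. The Ddx share was 8 of 69 (11.6%) and the Dhx share 6 of 44 (13.6%). Peaks of a gene share their source, so these shares are descriptions.

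The bases under peaks gave the extent of the mark. Setd2-KO peaks covered 12724 bases of the members and control peaks 62226 bases, so that the Setd2-KO sum was 20.4% of the control sum, beside 20.8% over all control-marked genes. With the control list of equal size the members' value was 54.4%, beside 50.3% over all genes marked in it. The value was 23.6% in Ddx genes (9372 Setd2-KO and 39690 control bases) and 14.9% in Dhx genes (3352 Setd2-KO and 22536 control bases). This order turned with peaks of at least 4-fold enrichment, to 11.3% in Ddx and 28.2% in Dhx genes, and with the control list of equal size, to 51.0% in Ddx and 61.2% in Dhx genes. All 13 kept members had fewer bases under Setd2-KO than under control peaks, as had 91.9% of all kept genes. In kept members the median was 661 bases in Setd2-KO and 3288 bases in control PTECs, beside 512 Setd2-KO and 1785 control bases over all kept genes.

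The control-marked Ddx genes had a median of 352 bases in Setd2-KO and 1619 bases in control PTECs. The Dhx genes had 0 bases in Setd2-KO and 2745 bases in control PTECs, and all control-marked genes had 0 bases in Setd2-KO and 911 bases in control PTECs. The marked Ddx genes were shorter, however, with a median of 19006 bp, against 34440 bp in the marked Dhx genes. Per kb of gene body the order of the families turned, with 86.3 control bases per kb in Ddx and 52.6 in Dhx genes, beside 32.5 over all marked genes. It also turned without genes that overlap another coding gene, where the Ddx median was 408.5 bases above a Dhx median of 1312 bases. With peaks of a -log10 q of at least 5 the medians differed by only 38 bases.

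**Figure D3:**
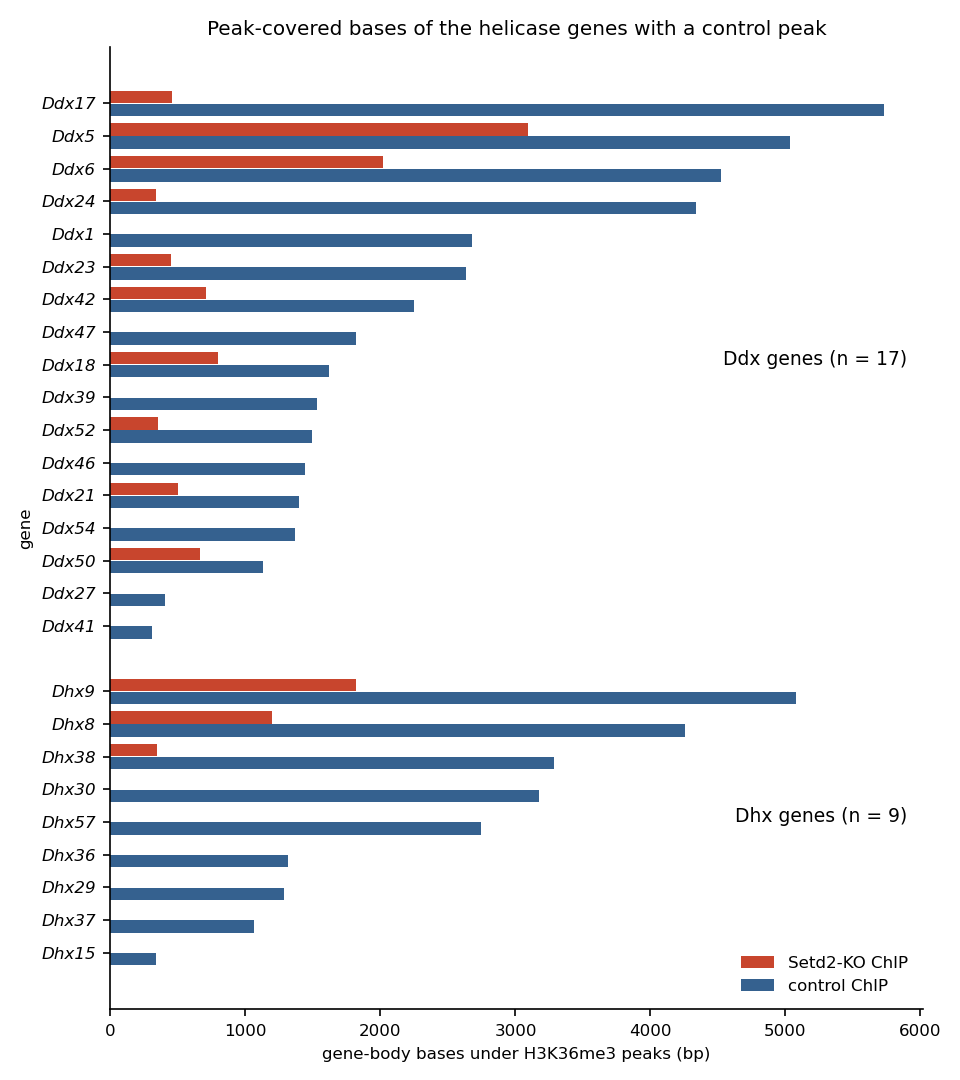
Gene-body bases under H3K36me3 peaks (horizontal axis, bp) in each of the 26 helicase genes with a control peak, with the Setd2-KO ChIP bar above the control ChIP bar and Ddx genes above Dhx genes. Each bar is 1 library; Setd2-KO bars are shorter than control bars in every gene shown and are missing in 13 genes.

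The members were next taken by role, beginning with pre-mRNA splicing. Of 12 splicing helicases, 6 were marked in Setd2-KO and 9 in control PTECs, beside 7.76% of all genes in Setd2-KO and 20.6% in control PTECs. They held 6239 bases in Setd2-KO and 25271 bases in control PTECs. Ddx5 and Ddx17 encode a pair of closely related helicases that act in splicing and as transcriptional coregulators, and they behaved differently. Ddx5 (chromosome 11, 8831 bp) had 5 peaks over 3091 bases in Setd2-KO PTECs, against 3 peaks over 5031 bases in control PTECs. It was the only member with more Setd2-KO than control peaks. The mark covered 35.0% of the gene in Setd2-KO and 57.0% in control PTECs, the highest value of all members in both genotypes.

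All 5 Setd2-KO peaks of Ddx5 lay on or within its 3 control peaks. The strongest control peak of all members stood in its intron, with a summit of 86 fragments and 9.97-fold enrichment, the window shown above. At that place the Setd2-KO summit was 36 fragments and 4.01-fold. Thus Ddx5 kept most of its covered length, while the height at its strongest place was lower.

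Ddx17 (chromosome 15) had 1 peak over 456 bases in Setd2-KO PTECs, against 10 peaks over 5730 bases in control PTECs, the largest control coverage of any member. The Setd2-KO bases were 7.96% of the control bases, compared with 61.4% in Ddx5. The one Setd2-KO peak, with 3.90-fold enrichment, overlapped a control peak of 3.56-fold. In fragments the order was the other way, with a summit of 30 in Setd2-KO and 33 in control PTECs. The strongest control peak, of 5.41-fold over exon 12, had no Setd2-KO peak within 1 kb.

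Of the helicases that act at single steps of the spliceosome cycle, Ddx23, Ddx42, Dhx8 and Dhx38 were kept. Ddx23, which helps exchange the snRNAs at the 5' splice site, had 1 peak over 451 bases in Setd2-KO and 4 peaks over 2635 bases in control PTECs. Its Setd2-KO peak (3.85-fold) lay whole within a control peak of 5.01-fold. Ddx42, which works with the branch-site factor SF3B, had 2 peaks over 706 bases in Setd2-KO and 5 peaks over 2248 bases in control PTECs. At exon 17 of Ddx42, in the window shown above, the peaks of both genotypes shared 399 bases, with 4.53-fold enrichment in Setd2-KO and 4.65-fold in control PTECs.

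Dhx8, which frees the finished mRNA from the spliceosome, had 2 peaks over 1194 bases in Setd2-KO and 8 peaks over 4253 bases in control PTECs. Both Setd2-KO peaks overlapped control peaks near the 3' end. At exon 21 they shared 730 bases, with 4.28-fold enrichment in Setd2-KO and 6.46-fold in control PTECs. At the last exon they shared 543 bases, with 5.04-fold enrichment in Setd2-KO and 4.75-fold in control PTECs. The Setd2-KO summit was thus lower at the first place and slightly higher at the second. Dhx38, which remodels the spliceosome before exon ligation, had 1 peak over 341 bases in Setd2-KO and 5 peaks over 3288 bases in control PTECs. The Setd2-KO peak (4.77-fold) fell on the edge of a control peak of 1595 bp (3.96-fold).

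The remaining splicing helicases had control peaks alone or no peak. Ddx46, which acts at the branch site, had 0 bases in Setd2-KO and 1440 bases in control PTECs. Dhx15, which takes spent spliceosomes apart, and Ddx41 had 0 bases in Setd2-KO PTECs, against 337 bases in Dhx15 and 309 bases in Ddx41 in control PTECs, with 1 control peak each. Ddx39b, Dhx16 and Dhx35 had no peak in either list.

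In ribosome biogenesis, 4 of 15 helicases were marked in Setd2-KO and 8 in control PTECs. Over all genes 7.76% were marked in Setd2-KO and 20.6% in control PTECs. The group held 1986 Setd2-KO and 13507 control bases. Ddx24 had 1 peak over 337 bases in Setd2-KO and 5 peaks over 4339 bases in control PTECs. Its Setd2-KO peak overlapped no control peak, but stood within 1 kb of one. Ddx18 had 2 peaks over 795 bases in Setd2-KO and 2 peaks over 1619 bases in control PTECs. The peaks of the 2 genotypes stood more than 1 kb apart, so Ddx18 was kept as a gene although no place in it was.

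The neighbours Ddx21 and Ddx50 on chromosome 10, paralogs that encode nucleolar helicases and lie 13613 bp apart, were both kept. Ddx21 had 1 peak over 502 bases in Setd2-KO and 3 peaks over 1398 bases in control PTECs. Ddx50 had 2 peaks over 661 bases in Setd2-KO and 3 peaks over 1127 bases in control PTECs. In neither gene did the peaks of the genotypes overlap. The Setd2-KO peak of Ddx21 stood within 1 kb of a control peak, whereas those of Ddx50 did not. Masked bases made up 29.8% of the Setd2-KO and 62.4% of the control peak bases of Ddx50, the highest control value among the members.

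Ddx52 had 1 peak over 352 bases in Setd2-KO and 4 peaks over 1490 bases in control PTECs, without overlap. Its Setd2-KO peak stood within 1 kb of a control peak. Ddx47, Ddx54, Dhx37 and Ddx27 had 0 bases in Setd2-KO PTECs, against 1822, 1368, 1064 and 407 bases in control PTECs. The control peaks of Ddx47 had their midpoints at 0.36 and 0.52 of its length, and a control peak ran over the box codons shown above. Ddx10, Ddx31, Ddx49, Ddx51, Ddx55, Ddx56 and Dhx33 had no peak in either list.

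Of 8 helicases of mRNA export, storage, decay and translation, 1 was marked in Setd2-KO and 5 in control PTECs. The shares over all genes were 7.76% in Setd2-KO and 20.6% in control PTECs. The one kept gene was Ddx6, a core protein of processing bodies that represses translation and promotes decapping. It had 4 peaks over 2021 bases in Setd2-KO and 9 peaks over 4519 bases in control PTECs. Of its Setd2-KO peaks 2 overlapped control peaks, by 362 bases at exon 11 and by 14 bases in the last exon, and the other 2 stood within 1 kb of a control peak. The strongest Setd2-KO peak of Ddx6 had 4.34-fold and its strongest control peak 4.15-fold enrichment.

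Ddx1, part of the tRNA ligase complex, had 0 bases in Setd2-KO and 2677 bases over 6 peaks in control PTECs. Ddx39 (also called Ddx39a), an mRNA export helicase, had 0 Setd2-KO and 1531 control bases. Of the Ddx39 control bases, 655 lay in the stretch it shares with Adgre5, and the mark there cannot be given to either gene. Dhx36, which unwinds G-quadruplexes, had 0 Setd2-KO and 1312 control bases. Dhx29, which helps the small ribosomal subunit through structured leaders, had 0 Setd2-KO and 1285 control bases, although 1 of its 3 control peaks reached 5.42-fold enrichment. Ddx19a, Ddx19b and Dhx34 had no peak in either list. Ddx19a and Ddx19b are closely related neighbours on chromosome 8, 5387 bp apart, and 90.3% of the read-length stretches of Ddx19a occurred once, the lowest share of all members.

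Dhx9, which resolves double-stranded RNA and RNA-DNA hybrids, was placed with genome maintenance and had the most control bases of the Dhx genes, although a smaller share of its gene body was covered in control PTECs (15.9%) than in Dhx38 (18.4%). It had 3 peaks over 1817 bases in Setd2-KO and 11 peaks over 5075 bases in control PTECs, and all 3 Setd2-KO peaks overlapped control peaks. At its strongest control peak, enrichment was 3.38-fold in Setd2-KO and 6.47-fold in control PTECs. At exon 4 the order was the other way round. There the Setd2-KO peak was 861 bp long with 4.56-fold enrichment, against 425 bp and 2.80-fold in control PTECs. In fragments the 2 summits were closer, with 36 in Setd2-KO and 31 in control PTECs. Ddx11, the other gene of this group, had no peak.

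The mitochondrial helicase Dhx30, which supports mitochondrial ribosome assembly, had 0 bases in Setd2-KO and 3177 bases over 6 peaks in control PTECs. It had the most control bases of any member that was not kept, followed by Dhx57 with 0 Setd2-KO and 2745 control bases. Ddx28 had no peak. No peak lay in the helicases of innate immune sensing, Ddx58 (RIG-I), Dhx58 (LGP2) and Ddx60, or in the germ line helicases Ddx4 (Vasa), Ddx25 and Ddx43. Ddx20, Ddx59, Dhx32 and Dhx40 also had none. The 25 unmarked members were 2262 to 149419 bp long (median 24888 bp) and the 26 marked ones 6249 to 52168 bp (median 21529 bp). Over all genes the order was the other way, with a median of 14205 bp in the unmarked and 30474 bp in the marked.

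Between the genotypes the height of the peaks differed less than the covered length. The strongest Setd2-KO peak of the kept members had a median of 4.01-fold enrichment, against 4.65-fold in control PTECs, beside 3.98-fold in Setd2-KO and 4.46-fold in control PTECs over all kept genes. The Setd2-KO value was the higher one in Ddx6, Ddx50 and Dhx38, that is in 3 of 13 kept members (23.1%), beside 27.2% of all kept genes. In fragments, the tallest summit of Ddx6 was 33 in Setd2-KO and 47 in control PTECs. It was 34 in Setd2-KO and 35 in control PTECs for Ddx50, and 35 in Setd2-KO and 34 in control PTECs for Dhx38. Over all member peaks the median was 3.85-fold in Setd2-KO (range 3.38 to 5.04) and 3.83-fold in control PTECs (2.63 to 9.97). The median peak was 434 bp long in Setd2-KO PTECs and 448 bp in control PTECs. The member genes thus held fewer peaks in Setd2-KO PTECs, with medians of height and length close to those in control PTECs. Fold enrichment of listed peaks says nothing of signal below the calling threshold, which was not used here.

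The places of the peaks within the genes were compared next. No member had a peak centred within 1 kb of its start, the nearest being 1223 bp away in Setd2-KO PTECs and 1714 bp away in control PTECs, both in Ddx5. The first 20% of the gene body held 2 of 26 Setd2-KO peaks (7.69%) and 4 of 113 control peaks (3.54%), beside 4.89% of Setd2-KO and 4.66% of control peaks over all genes. The last 20% held 6 Setd2-KO peaks (23.1%) and 34 control peaks (30.1%), beside 34.7% of Setd2-KO and 35.4% of control peaks over all genes. Among control peaks, 17 of 69 stood in the last 20% in Ddx genes (24.6%) and 17 of 44 in Dhx genes (38.6%).

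**Figure D4:**
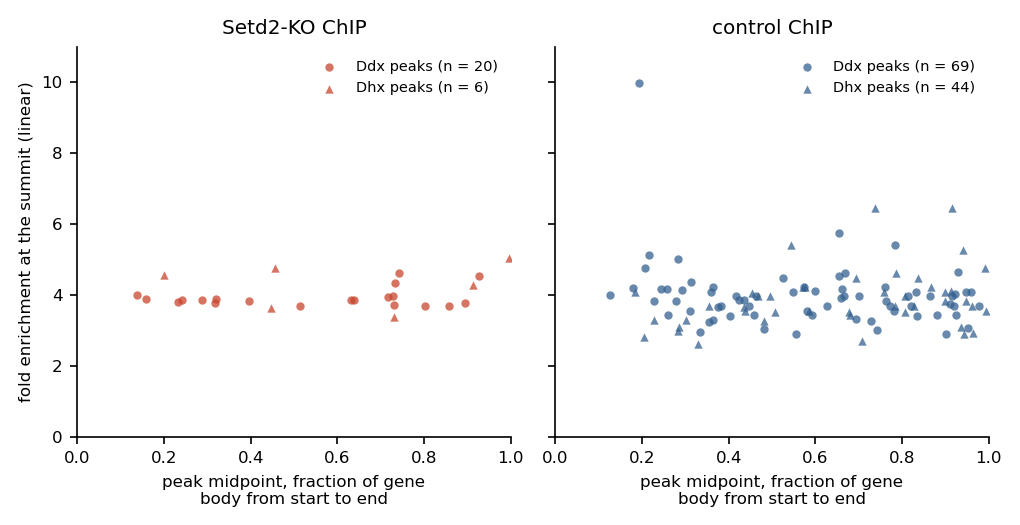
Fold enrichment at the summit (vertical axis, linear) against the peak midpoint as a fraction of the gene body from start to end (horizontal axis), for Setd2-KO peaks on the left and control peaks on the right, with circles for Ddx and triangles for Dhx peaks. Peaks are sparse in the first 20% (2 of 26 Setd2-KO and 4 of 113 control peaks), and the control peak of 9.97-fold in Ddx5 stands alone.

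Most peak midpoints were intronic, 22 of 26 in Setd2-KO (84.6%) and 90 of 113 in control PTECs (79.6%). Over all genes 68.1% of Setd2-KO and 73.6% of control midpoints were intronic. Coding exons held 2 Setd2-KO (7.69%) and 16 control midpoints (14.2%), beside 22.8% of Setd2-KO and 17.6% of control midpoints over all genes. The 3' UTRs held 2 Setd2-KO (7.69%) and 7 control midpoints (6.19%), beside 6.39% of Setd2-KO and 5.65% of control midpoints over all genes. Exonic bases made up 18.1% of the covered bases in Setd2-KO PTECs, where they were 16.5% of the bodies of the marked members. In control PTECs they made up 22.3%, compared with 15.1% of the gene bodies. Over all genes exonic bases were 35.1% of the Setd2-KO and 25.4% of the control bases, while exons made up 7.01% of the bodies of Setd2-KO-marked and 7.12% of control-marked genes.

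RNA helicases with other names gave a comparison within the same class of enzymes. Of 21 such genes, 7 were marked in Setd2-KO and 14 in control PTECs, and 6 of the 14 were kept (42.9%, 17.7 to 71.1%). Over all genes 7.76% were marked in Setd2-KO and 20.6% in control PTECs, and 34.5% of the control-marked genes were kept, a share within that interval. Znfx1 had 1300 bases in Setd2-KO and 8012 bases in control PTECs. Snrnp200, which unwinds the U4 and U6 snRNAs in the spliceosome, had 1825 Setd2-KO and 7081 control bases. Both had more control bases than any Ddx or Dhx gene. Aqr, a helicase of the intron-binding complex, had 0 Setd2-KO and 4591 control bases, so a gene with over 4000 control bases could be without a Setd2-KO peak.

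The DEAD box translation factor Eif4a2 had 1428 bases in Setd2-KO and 3546 bases in control PTECs, and Eif4a3, a core protein of the exon junction complex, had 1191 Setd2-KO and 3196 control bases. Upf1, the helicase of nonsense-mediated decay, had 608 Setd2-KO and 2204 control bases, and Helz had 289 Setd2-KO and 1180 control bases. Ythdc2 was the only listed helicase with a Setd2-KO peak (290 bases) and no control peak. The share kept lay between the Ddx and Dhx shares, with an interval that took in both.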

How the data were processed

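H3K36me3 ChIP and input libraries (antibody ab9050, single-end reads) were made from PTECs of both genotypes, with 1 library each. Groups followed the sample labels. The study's reporting form in 1 place describes the ChIP material as kidney cysts and neoplastic masses, and the labels were followed here.

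Per the submitters' processing notes, reads were handled with cutadapt 1.9.1, Trimmomatic 0.35, FastQC, Bowtie2 2.2.6, MACS2 2.1.1 and ChIPseeker, on GRCm38 (mm10). The authors deposited 1 peak list per ChIP library, called against its input. The deposited signal (pileup) is the number of fragments over a summit, and the deposited fold enrichment is the ratio of pileup to local background, each plus 1. The authors' -log10 q values compare ChIP with input, and the lowest deposited -log10 q was 3.08 in the Setd2-KO and 3.09 in the control list. Other deposited columns hold positions. Peak lists give no total read count, so the background pileup stood for depth. The read counts in the study's reporting form were not used here.

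Peaks were joined to GENCODE M21 gene bodies by an overlap of at least 1 bp, with Python 3.11.15, pandas 2.3.3, numpy 2.4.6 and scipy 1.17.1, and the join was tested on simulated peaks. Classes and exons followed the transcript with the longest coding sequence. Sequences and repeat masking came from the RefSeq GRCm38 assembly. The box was found by translating coding models (Biopython 1.88), since no protein table was used here. Members with a Setd2-KO peak or many control bases were described in full, the others by bases or name. The members, role groups, marker and helicase lists were chosen with earlier results of these data known. Shares have exact binomial and differences Newcombe 95% intervals. The alternatives were peak midpoints, stricter peaks, at least 2 peaks per gene, 1 kb flanks, non-overlapping genes, a control list of equal size, chromosomes X and Y, values per kb, and other rules for shared peaks. With 1 library per group no replicate could be left out.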

Additional observations from a re-analysis of the deposited data

How the results depend on the processing

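Of 171 values recomputed under 12 alternatives, 137 stayed within the limits used (a factor of 1.5 for counts and bases, the 95% interval for shares), 29 moved and 5 changed sign. Midpoints, 1 kb flanks and chromosomes X and Y moved none. With at least 4-fold enrichment in both lists, 7 members and 4 Ddx genes were marked in Setd2-KO PTECs, beside 728 of all genes. By that rule 28.6% of Ddx genes were kept, beside 23.8% over all genes, and the kept difference of Ddx minus Dhx was -21.4 points. The control medians were then 974.5 bases over members, 898 in Ddx and 985.5 in Dhx genes (a difference of -87.5), and Setd2-KO bases were 11.3% of control bases in Ddx and 28.2% in Dhx genes. With a -log10 q of at least 5 the Dhx median was 1657 bases and the difference -38. With at least 2 peaks per gene, 7 members and 5 Ddx genes were marked in Setd2-KO PTECs, beside 566 of all genes. Without overlapping genes the Dhx median was 1312 and the difference 408.5 bases, and per kb the difference was 33.7 bases. With a control list of equal size, 14 members, 9 Ddx and 5 Dhx genes were marked in control PTECs, with medians of 649.5, 666 and 624 bases (Ddx minus Dhx 42). Setd2-KO bases were then 54.4%, 51.0% and 61.2% of control bases, beside 50.3% over all genes. Of control peaks 31.8%, 33.3% and 30.0% were shared, beside 26.3% over all genes. With a Setd2-KO peak within 1 kb, 23.9% of member and 24.6% of Ddx control peaks were shared, beside 20.96% over all genes. The Dhx share was then 22.73%, which stayed within the limits used. Under the added rule that peaks must overlap, 29.4% of Ddx genes were kept and the difference was -3.92 points. The cause of these shifts was not tested, and the stricter rules also leave smaller lists. No paired analysis was possible because each genotype had 1 ChIP library, so library and genotype cannot be told apart, and genes with few reads may hold signal below the calling threshold.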

Other observations

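The DEAD box genes on the sex chromosomes stood outside the count. Ddx3x (chromosome X), a translation and RNA metabolism helicase, had no peak in either list. Its Y-linked copy Ddx3y had 1 peak over 564 bases in Setd2-KO PTECs, against 1 peak over 904 bases in control PTECs. Fold enrichment there was 4.77 in Setd2-KO and 4.75 in control PTECs. With chromosomes X and Y included, 14 of 27 control-marked members were kept (51.9%), among them 11 of 18 Ddx genes (61.1%). Over all control-marked genes the kept share was then 34.5%.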
